A study of Mus musculus with 4 samples.

Results

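Chromatin accessibility was examined at 10 genes that mature T cells and natural killer (NK) cells use to sense and respond to other cells, in Lin-Sca1+Kit+ (LSK) cells sorted from mouse bone marrow. The genes were Cd3e, Cd3d, Cd3g, Cd247, Cd4, Cd8a, Lck, Zap70, Ncr1 and Klrd1. This list was named for its function and not chosen by signal, but earlier results of these data were known when the genes were picked. Every interval of the deposited table whose list of assigned genes held 1 of them was taken, which gave 26 merged regions of 69759 and 8 of the 10 genes. The table named 20811 genes in all. The assay was ATAC-seq, which reads open DNA from where a transposase can cut it and add adapters, on 50000 sorted cells per library. Libraries WT 1 and WT 2 came from p53+/+ mice and R248W 1 and R248W 2 from p53R248W/+ mice, which carry 1 allele of the tumor suppressor p53 with the R248W change and 1 normal allele. The study asked how this mutant p53 alters transcription in stem and progenitor cells. Whether the 2 libraries of each genotype represent different mice is not in the labels, so p-values measure only the spread between these libraries, which may be technical.

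T cells recognize antigen through a receptor that has no signaling part of its own. The CD3 chains and the zeta chain carry the signal into the cell, the coreceptors CD4 and CD8 bring the kinase LCK to the complex, and LCK phosphorylates the CD3 and zeta tails so that the kinase ZAP70 can bind and pass the signal on. NK cells use germline-encoded receptors instead. NKp46, encoded by Ncr1, activates killing, and CD94, encoded by Klrd1, pairs with NKG2 proteins to read class I MHC. LSK cells hold stem cells and early progenitors, some of which are primed for the lymphoid lineages, while T cell antigen receptor genes are normally assembled and used later, in the thymus.

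The libraries, always given below in the order WT 1, WT 2, R248W 1 and R248W 2, had 46720, 62478, 60385 and 51150 intervals, with a median highest-bin signal of 52, 62, 62 and 50, and 6 to 15 intervals on the Y chromosome. Read depth was unknown. The highest-bin signal is the authors' value for the tallest bin of an interval, on a scale that no source makes comparable between libraries, so the percentile of an interval within its own library's list is given beside it. A start-site interval is one whose summit lies within 1 kb of the gene's start by the authors' distance. Of 10 genes that mark the LSK gate or its stem cells, 8 had a start-site interval in all 4 libraries, among them Kit (143, 277, 312 and 172), Cd34 and Flt3. Ly6a, which encodes Sca1, and Mecom did not. Markers of other cells had such intervals in all 4 libraries for 0 of 7 B cell genes, 1 of 7 mature myeloid genes and 3 of 4 erythroid genes. Per library, the start-site counts were 8 for the gate, 0 to 2 for B cell, 1 to 2 for mature myeloid and 3 for erythroid genes. The part of such cells in the results below was not tested.

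Promoter sequences show what the start sites of these genes are like, and the RefSeq table (GRCm38.p6, 250 bases before to 50 after each start) held 12 promoters for 8 of the 10 genes. Cd4 and Klrd1 had no entry. The 4 printed here show 3 genes without a start-site interval by the table's distances: Lck has both of its annotated starts, 1 of which lay under an interval of a single library, and Cd8a and Ncr1 had no assigned interval at all. Capitals mark TGTGGT, the core recognized by RUNX factors, and AGGAAG, a sequence recognized by ETS factors, on either strand. No 2 marked matches overlap.
Lck, outer start, chr4:129573592-129573891, minus strand: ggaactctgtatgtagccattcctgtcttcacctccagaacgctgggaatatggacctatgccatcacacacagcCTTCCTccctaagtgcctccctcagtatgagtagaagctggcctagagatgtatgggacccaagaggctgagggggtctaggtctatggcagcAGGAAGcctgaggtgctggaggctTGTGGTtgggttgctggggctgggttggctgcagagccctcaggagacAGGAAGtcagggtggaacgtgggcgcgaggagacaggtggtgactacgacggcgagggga
Lck, inner start, chr4:129558323-129558622, minus strand: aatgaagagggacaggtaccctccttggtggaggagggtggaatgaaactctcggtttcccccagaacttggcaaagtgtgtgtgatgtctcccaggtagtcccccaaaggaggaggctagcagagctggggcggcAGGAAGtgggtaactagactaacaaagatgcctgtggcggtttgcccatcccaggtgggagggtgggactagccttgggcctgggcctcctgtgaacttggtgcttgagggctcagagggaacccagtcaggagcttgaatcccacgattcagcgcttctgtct
Cd8a, chr6:71373177-71373476, plus strand: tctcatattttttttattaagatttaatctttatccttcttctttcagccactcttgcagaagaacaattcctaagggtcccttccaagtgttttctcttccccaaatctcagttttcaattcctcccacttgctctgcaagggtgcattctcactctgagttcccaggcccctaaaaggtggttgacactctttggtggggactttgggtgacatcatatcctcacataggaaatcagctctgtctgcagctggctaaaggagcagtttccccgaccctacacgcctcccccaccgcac
Ncr1, chr7:4337465-4337764, plus strand: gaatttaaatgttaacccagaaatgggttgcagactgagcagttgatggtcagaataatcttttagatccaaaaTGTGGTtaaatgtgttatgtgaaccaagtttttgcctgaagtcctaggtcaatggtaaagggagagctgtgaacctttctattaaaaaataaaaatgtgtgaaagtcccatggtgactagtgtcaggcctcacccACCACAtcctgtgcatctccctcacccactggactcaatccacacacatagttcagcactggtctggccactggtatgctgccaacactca

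All 12 promoters were poor in CpG dinucleotides, with 0 to 9 in 300 bases and a median of 4.5, against a median of 13 over 21263 promoters of 17492 coding genes. Both Ncr1 promoters had 0, Cd3d had 1, Cd8a and Cd247 had 3, and the inner Lck start had 5 and the outer 7. GC content ran from 42.3% to 58.3%, with a median of 56.3% over all coding promoters. TGTGGT was present in 4 of the 12 promoters, those of Lck (outer start), Zap70 (1 of its 3 starts) and Ncr1 (both starts), and in 15% of all coding promoters. The 2 Ncr1 windows, with starts at 4337715 and 4337724, overlap and hold the same matches, so they are not separate sequences. By gene it was 3 of 8. AGGAAG was present in 7 of the 12, from 5 genes, and in 34.4% of all. Cd8a had neither in this window. The same scan covered the E-box, present in 12 of the 12 promoters and in 69% of all. It also covered the motif of the factor family of Gata3, present in 1 of the 12, from 1 gene, and in 9.65% of all. The percentages count promoters, and no share by gene is given for comparison with the counts by gene. No difference from all coding promoters was tested. These are matches of letters, not sites of binding.

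**Figure D1:**
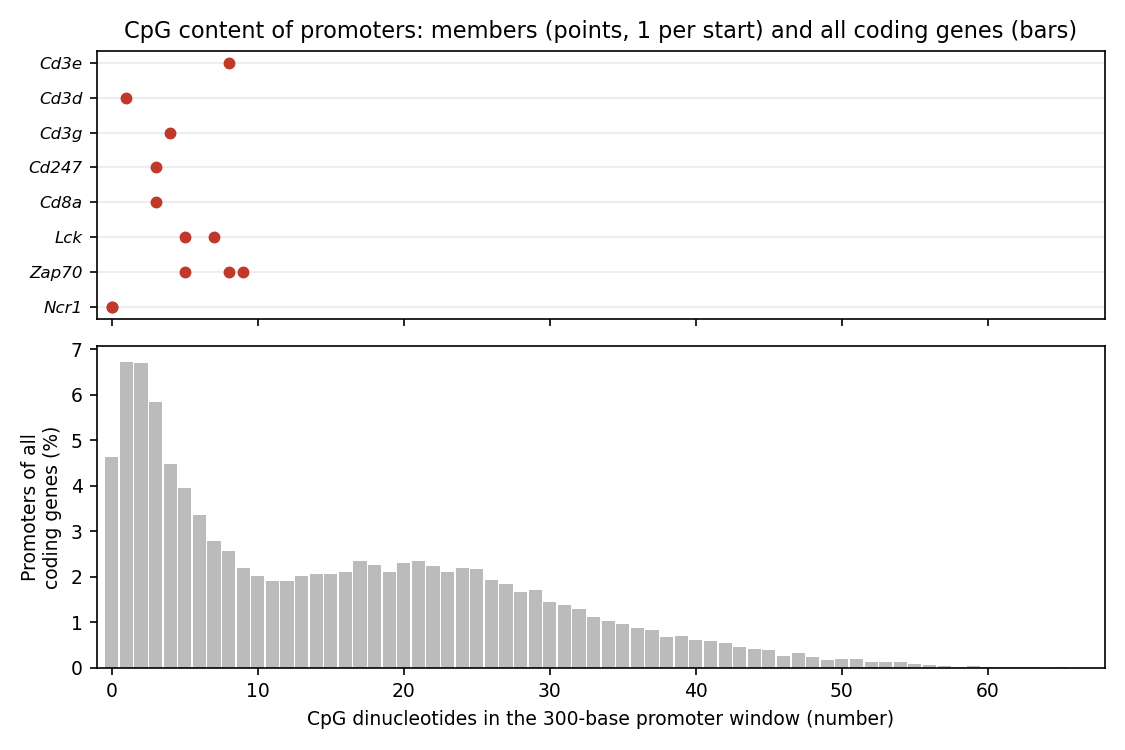
Number of CpG dinucleotides in the promoter window (x axis) for the 12 promoters of 8 members (points, 1 row per gene) and, as bars, in the lower panel, the percentage of all coding promoters with each number. The members lie between 0 and 9, below the median of 13 for all coding promoters, and both Ncr1 promoters overlie at 0.

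Klrd1 was the only one of the 10 genes with a start-site interval in all 4 libraries. That is 10% of the list, against 52% of 21887 protein-coding genes. Cd4 had one in WT 2 alone, and the other 8 genes had none in any library. By library, 1, 2, 1 and 1 of the 10 genes had one, against 53.7%, 56.6%, 56% and 55.8% of coding genes, and 2 of 10 had one in at least 1 library, against 58.7%. The count was 1 with each library left out in turn, with the best 50% of each list, with equal numbers of intervals per library and with a window of 500 bases. It was 2 within 2 kb, where Lck joined, and 5 by the authors' promoter annotation, which added Cd247, Cd3g, Lck and Zap70 and by which 46 of 59 other T and NK genes had one. The 52% of coding genes belongs to the main setting, and no share of coding genes is given for these alternatives. With every RefSeq start counted, also those of genes to which the interval was not assigned, the count was 1, against 55.3% of 17492 coding genes. That gene was Klrd1. Like Cd4 it has no RefSeq promoter entry, so both were scored by the start used for the authors' distances. No gene with such an entry had a start-site interval in all 4 libraries by its RefSeq starts. Low CpG content goes with missing start-site intervals in general: of 7084 coding genes whose promoters hold at most 9 CpG dinucleotides, 15.4% had a start-site interval in all 4 libraries, against 77.7% of the 10408 genes with more. Expression was not measured, and the part of CpG content in the members' count was not tested.

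Most of the 10 genes had assigned intervals away from their starts. With any assigned interval counted, 7 of the 10 genes had one in all 4 libraries, which is close to the 73% of all coding genes. In at least 1 library it was 8, against 78.5%. Both shares of coding genes also count start-site intervals, and no share for intervals away from starts is given. Of the 26 regions, 19 were called in all 4 libraries (73.1%, against 58% of all merged regions), 1 in both WT libraries and 6 in 1 library (23.1%, against 15.9%). As Cd3g and Cd3d share a region, the 26 regions made 27 pairs of a gene and a region. By the authors' annotation 10 pairs were in the gene, 8 upstream and 9 downstream, and the median distance from summit to start was 15.1 kb. In 4 pairs the summit lay within 1 kb of the start of a different gene.

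**Figure D2:**
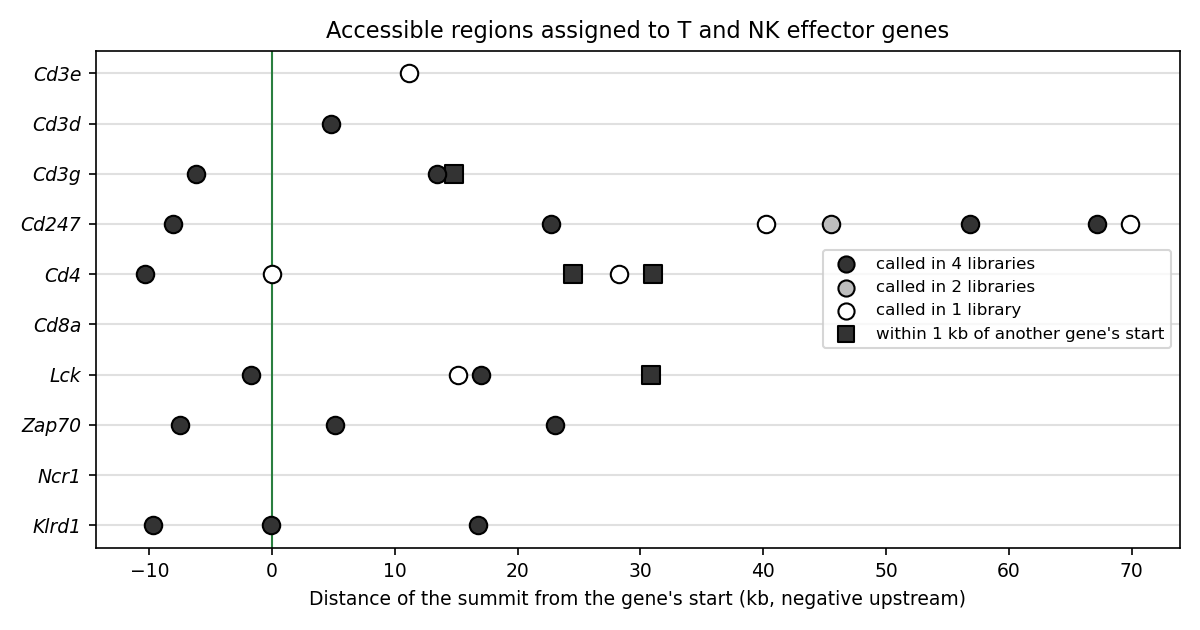
Position of each region assigned to the 10 genes, as the distance of its summit from the gene's start in kb (x axis), 1 row per gene. Fill gives the number of libraries in which the region was called and squares lie within 1 kb of another gene's start; Klrd1 alone has a filled symbol at 0, Cd4 has an open one there, and the rows of Cd8a and Ncr1 are empty.

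Cd3g and Cd3d encode the gamma and delta chains of CD3, and their starts on chromosome 9 lie 1355 bases apart and face away from each other. No library had an interval between 44967556 and 44985761, a stretch of 18.2 kb that holds both starts. The nearest region (chromosome 9, 44985761 to 44987529) lay at the far end of Cd3d, its summit 4806 bases inside the gene by the table and 460 bases before the gene's end in RefSeq, and 6161 bases upstream of Cd3g. Its highest-bin signals were 171 (WT 1), 247 (WT 2), 260 (R248W 1) and 164 (R248W 2), which put it at percentiles 88.6, 89.8, 90.2 and 88.2 of the 4 lists. By percentile the 4 libraries were within 2 points of each other, and the genotypes overlapped on both scales. This region, shared by 2 CD3 genes without start-site intervals, was the highest of all the regions that were not at another gene's start.

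Downstream of Cd3g, on the other side, lay 2 more regions called in all 4 libraries. The first had its summit 32 bases upstream of the start of Ube4a, a ubiquitin ligase gene, and signals of 151, 148, 191 and 140. The second had its summit at -1344 bases from that start, with 85, 111, 108 and 94. Both are 13.5 to 14.8 kb from the start of Cd3g and are nearer to Ube4a, so the assignment to Cd3g says only that the gene is next to them.

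Cd3e encodes the epsilon chain, present in every CD3 dimer, and had a single interval in 1 library. WT 2 listed it 11158 bases from the start and 303 bases past the end of the gene in RefSeq (chromosome 9, 44997982 to 44998675), with a signal of 20, at percentile 0.754 of that library's list. WT 1, R248W 1 and R248W 2 had none. Around the start, a stretch of 23.9 kb from 44998675 to 45022601 held no interval in any library.

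Cd247 encodes the zeta chain and, with a gene length of 91202 bases in RefSeq, had the most regions, 7, of which 4 were called in all 4 libraries. In the gene, the region 56.8 kb from the start (chromosome 1, 165843479 to 165846282), which carries a CpG island, had signals of 101, 168, 142 and 89. The region 67.2 kb from the start had 98, 112, 129 and 65. R248W 2 was lowest at both, and the genotypes overlapped. At 22.7 kb (165810801 to 165811947) the signals were 60, 71, 105 and 23. There R248W 1 was highest and R248W 2 far below the rest, at percentile 4.9 against 55.9 to 69.2 in the other libraries, so the 2 R248W libraries lay on either side of both WT libraries.

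The fourth region of Cd247 (165779487 to 165782159) bears on which start is used. Its summit was 7977 to 8649 bases upstream of the start that the table and the RefSeq promoter table give, with signals of 48, 103, 90 and 76. The RefSeq gene begins further out, at 165779952, and this point lay under the interval in every library, with summits 80, 624, 672 and 752 bases inside it. If that outermost end counts as a start, an alternative added after the data were seen, Cd247 has a start-site interval in all 4 libraries and the list has 2 such genes. The share of coding genes is then 56.8%.

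The only genotype-specific region at the 10 genes, meaning one that both libraries of 1 genotype listed and the other genotype lacked, was a weak one in Cd247. It lay 45.5 kb from the start (chromosome 1, 165833821 to 165834682) and was WT-only, with signals of 22 in WT 1 and 23 in WT 2, at percentiles 3.09 and 3.17. The nearest intervals of R248W 1 and R248W 2 were 8806 and 9346 bases away. So 1 of 10 genes had a WT-only and 0 an R248W-only region, against 2.33% and 3.68% of all genes in the table. The WT-only call was lost with equal numbers of intervals per library and with the best 50% of each list, and the count rose to 4 without WT 1.

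Among the coreceptors, Cd4 had 5 regions and Cd8a 0. At the start of Cd4, WT 2 listed a weak interval (chromosome 6, 124887854 to 124888652) with its summit 15 bases upstream of the start and a signal of 28, at percentile 10.7. WT 1, R248W 1 and R248W 2 had none, and in the library where it was farthest their nearest summit was 10.4 kb upstream. That upstream region, between Cd4 and Lag3, an inhibitory receptor gene of T cells, was called in all 4 libraries (124897945 to 124899142), with signals of 62, 60, 93 and 36. Both WT libraries lay between the 2 R248W libraries. The 2 downstream regions called in all 4 libraries lay at other genes, 503 bases inside Leprel2 (signals 82, 180, 174 and 97) and 125 bases inside Gpr162 (47, 77, 62 and 67). A further one, called in WT 2 alone with a signal of 81, lay at -2249 bases from the start of Leprel2.

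Cd8a encodes the alpha chain of CD8 and lay in a stretch with no interval in any library. It ran for 122 kb on chromosome 6, from 71317229 to 71439365, and holds the whole gene (71373427 to 71379171 in RefSeq). The nearest summits, 56.8 to 56.9 kb upstream of the start in the 4 libraries, were assigned to Cd8b1, which encodes the beta chain, with signals of 49, 49, 60 and 45. Cd8b1 had no start-site interval in any library either, but had an assigned interval in all 4.

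The kinase gene Lck is known to use a proximal promoter in immature thymocytes and a distal one in mature T cells. The outer start, 129573641 on chromosome 4, had no interval within 1 kb, but all 4 libraries listed a region 1623 to 1751 bases upstream (129574702 to 129576027). Its signals were 132, 175, 201 and 130, at percentiles 82.9, 83.2, 85.5 and 83.2. The libraries differed little by percentile, and the genotypes overlapped. No interval touched the 300 bases printed above for this start.

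The inner Lck start, 129558372, lay under an interval of WT 2 (129558115 to 129559014) whose summit was 167 bases upstream of it, with a signal of 35 at percentile 22.1. The table measures distance to the outer start only, so it lists this interval as 15102 bases inside the gene. WT 1, R248W 1 and R248W 2 had none there. Their nearest summits to the inner start were 1732, 2292 and 1732 bases further into the gene, in a region called in all 4 libraries (129555009 to 129557664). That region had signals of 77, 76, 64 and 66, and it was the only one of the 19 in which the genotypes did not overlap by signal. WT was higher, as in 2.33% of all regions called in all 4 libraries, and R248W was higher in 3.05%. By percentile, at 66.7 and 58.6 in WT against 51.1 and 62.4 in R248W, the genotypes overlapped. The highest region assigned to Lck, with 270, 388, 470 and 264, had its summit 106 bases upstream of the start of Hdac1, a histone deacetylase gene.

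Zap70 encodes the kinase that docks on the phosphorylated CD3 and zeta chains and had 3 regions, all called in all 4 libraries. They lay 7493 bases upstream of the start (chromosome 1, 36753480 to 36755029), 5115 bases inside the gene (36766226 to 36767577) and 23003 bases from the start (36784309 to 36786029), past the end of the gene. The upstream region had signals of 53, 78, 78 and 51, the inner region 44, 88, 70 and 44, and the downstream region 62, 86, 68 and 43. The 3 RefSeq starts of Zap70 had their nearest summits 2461 to 5880 bases away. The downstream region was the only one of the 19 in which the genotypes did not overlap by percentile, 58.1 and 63.3 in WT against 53.6 and 41.3 in R248W. Over all regions called in all 4 libraries, WT was higher on this scale in 8.56% and R248W in 12%.

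Klrd1 and Ncr1, the 2 NK receptor genes, had 3 regions and 0. At Klrd1, the start-site region (chromosome 6, 129591207 to 129592341) had its summit 99 to 163 bases upstream of the table's start, at 129591811, with signals of 72, 139, 125 and 72. These were percentiles 64.2, 77.8, 74.4 and 65.8, below the median of 85.3 for the mean start-site percentile of coding genes with such an interval in all 4 libraries. WT 2 and R248W 1 were high and WT 1 and R248W 2 low, so the genotypes overlapped. The RefSeq gene begins further out, at 129588092, where no library had an interval within 1 kb. A second region, 16.8 kb from the start and assigned also to Klrk1, which encodes the activating receptor NKG2D, had 95, 161, 146 and 86. It was somewhat nearer to the start of Klrk1 (15265 bases) than to that of Klrd1 (16765 bases). The region 9731 bases upstream and assigned also to Klre1, an NK receptor gene of the same cluster, had 35, 67, 59 and 27. This region was nearer to the start of Klre1, 3250 bases away at the closest.

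Ncr1, in contrast, had no assigned interval in any library. The stretch without an interval ran for 129 kb on chromosome 7, from 4297795 to 4426815, and holds the whole gene (4337715 to 4345184). All 4 libraries had their nearest summit at the same place, 40.3 kb upstream of the start, in an interval with no assigned gene and signals of 25, 30, 39 and 23.

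**Figure D3:**
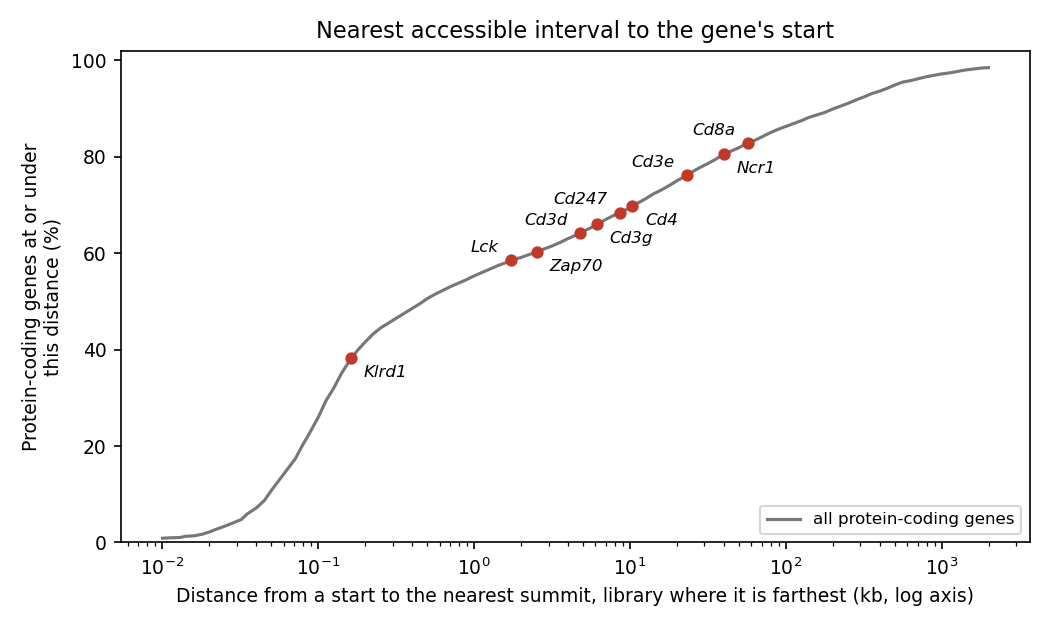
Distance from a gene's start to the nearest summit, in the library where it is farthest (x axis, kb, log axis), for 17492 coding genes (line, cumulative percentage on the y axis) and the 10 members (points, placed on the line by their distance). Klrd1 is at 0.163 kb, Lck at 1.73, Zap70 at 2.52, Cd3d at 4.81 and Cd8a, the farthest, at 56.9 kb. The line and the other points use RefSeq starts, but Cd4 and Klrd1 are placed by the start used for the authors' distances.

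The genes were ordered by the distance to the nearest summit, in the library where it was farthest. Every RefSeq start was counted. For Cd4 and Klrd1, without a RefSeq promoter entry, the start used for the authors' distances was taken. The order was Klrd1, Lck, Zap70, Cd3d, Cd3g, Cd247, Cd4, Cd3e, Ncr1 and Cd8a. The median over the 10 genes was 7.41 kb, against 0.472 kb for 17492 coding genes. Cd8a was farther than 82.8% of coding genes and Ncr1 than 80.5%, while Klrd1 was farther than 38.2%. From the outermost RefSeq end of Klrd1 the nearest summits were 3556 to 3620 bases away. WT 2 listed a nearer interval than the rest at Cd4 (15 bases) and Lck (167 bases). At Cd3e WT 2 (11179 bases) and R248W 1 (13365 bases) did so.

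The number of intervals assigned to the 10 genes was 20, 26, 19 and 19. WT had a mean of 23 ± 4.24 and R248W of 19 ± 0 (SD, n = 2 each), a difference of -4. By an exact permutation test over libraries, two-sided, p was 0.333, the smallest this design can give. Without WT 2 the difference was -1. Per 10000 intervals of each library the counts were 4.28, 4.16, 3.15 and 3.71 (exact permutation test, two-sided, p = 0.333). All 6 regions called in 1 library were of WT 2, the longest list. WT 2 also held 45.7% of the 11075 single-library regions of the whole table. With equal numbers of intervals per library, 5 of the 26 WT 2 intervals and 1 R248W 2 interval dropped out, and the counts were 20, 21, 19 and 18. The 5 lost from WT 2 were those of Cd3e, the start of Cd4, the inner start of Lck and 2 in Cd247.

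**Figure D4:**
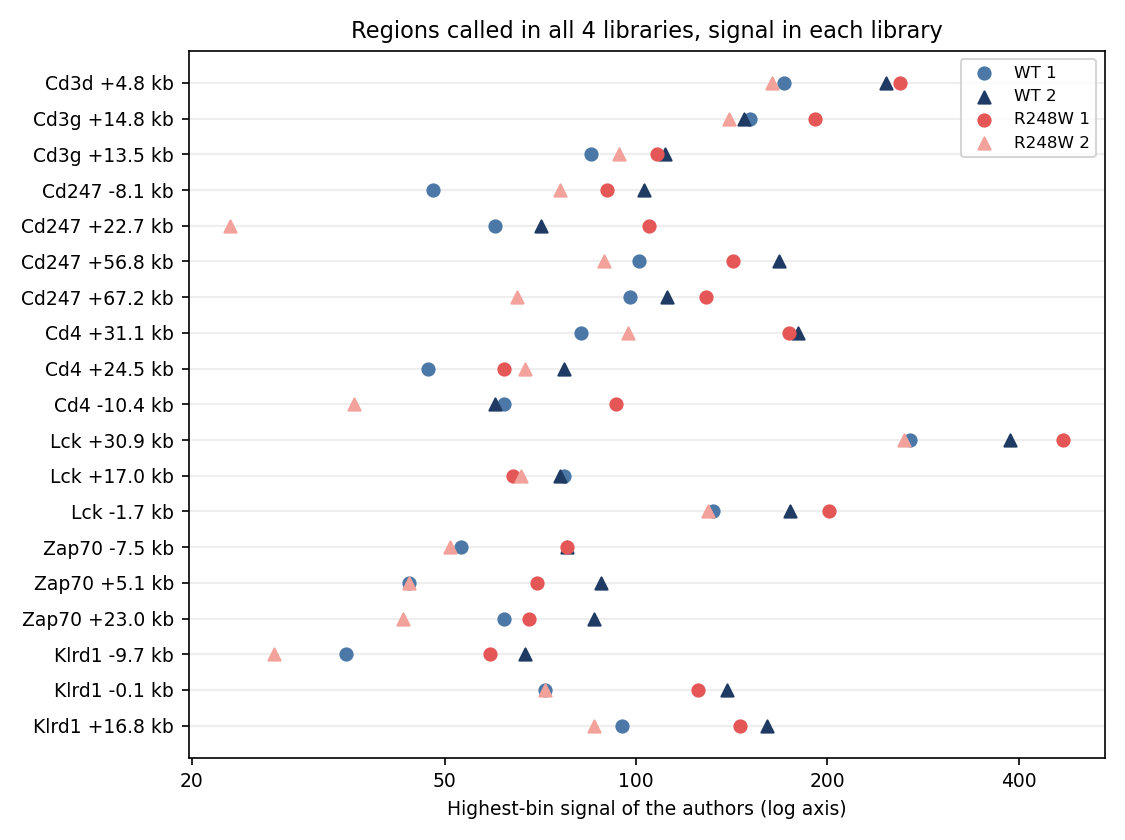
Highest-bin signal of the authors (x axis, log axis) in each library, for the 19 regions called in all 4 libraries; each is named by an assigned gene and the distance of its summit from that gene's start. WT 2 is highest in 11 regions and R248W 1 in 7, R248W 2 is lowest in 12, and the signals run from 23 to 470.

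Within the 19 regions called in all 4 libraries, the libraries ranked much as their median signals did. WT 2 had the highest signal in 11 regions, R248W 1 in 7 and WT 1 in 1, while R248W 2 was lowest in 12 and WT 1 in 6. By percentile WT 2 was highest in 9 and R248W 2 lowest in 10. The genotypes overlapped in 18 of the 19 regions on either scale. The exception was the region 17001 bases inside Lck by signal and the region 23003 bases from the Zap70 start by percentile. Of all 40492 regions called in all 4 libraries, the genotypes overlapped in 38313 by signal and 32172 by percentile.

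Other genes of T and NK cells, 59 in a list that holds none of the 10, had start-site intervals in all 4 libraries at 32 of 59. That is 54.2%, near the 52% of all coding genes. Of 12 transcription factor genes of T and NK cells, 9 had a start-site interval in all 4 libraries (75%, against 52% of coding genes). That difference was not tested. The highest were Runx3 (324, 565, 580 and 388), Ets1 (294, 522, 523 and 350), Id2 and Zbtb7b. Gata3 and Lef1, which act early in T cell development, had none in any library, and Tcf7 had weak ones with signals of 19, 33, 26 and 37. Others of the 12 went the other way. Bcl11b (30, 59, 66 and 60) and Tox (82, 169, 152 and 106) had one in all 4 libraries. Of 23 genes of antigen receptor signaling, 13 had one in all 4 libraries (56.5%, near the 52% of coding genes). They were led by the Src family kinase gene Fyn (361, 597, 577 and 401), the adaptor gene Lat (138, 269, 281 and 221), Vav1 and Ptprc. The kinases Lck and Zap70, of the 10 members, had none by the same measure. Within the 23, 6 also had none in any library: Cd8b1, Ctla4, Trat1, Sh2d1a, Themis and Skap1.

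Of 14 NK receptors and adaptors 6 had a start-site interval in all 4 libraries (42.9%, against 52% of coding genes, a difference that was not tested), led by the adaptor gene Tyrobp (94, 161, 149 and 75), Cd244, Cd226 and Cd96. Klrk1, Klre1, Klrb1c and Il2rb had none in any library. Of 10 cytotoxic effectors 4 had one (40%), Prf1, which encodes perforin (56, 65, 82 and 23), Nkg7 (44, 53, 88 and 32), Ctsw and the granzyme gene Gzmb (25, 38, 47 and 31), while Ifng, Fasl and Gzma had none. The median of the mean percentile, over the genes of each group with such an interval in all 4 libraries, was 77.2 for transcription factors, 75.4 for signaling, 62.6 for NK receptors and 39.3 for effectors, against 85.3 for all coding genes. WT-only regions lay at 3 of the 59 genes, Rhoh (31695 bases from the start, signals 23 and 34), Bcl11b (-2890 bases, 32 and 37) and Ccl5 (-6106 bases, 35 and 33), and R248W-only regions at 0, against 2.33% and 3.68% of all genes in the table.

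**Figure D5:**
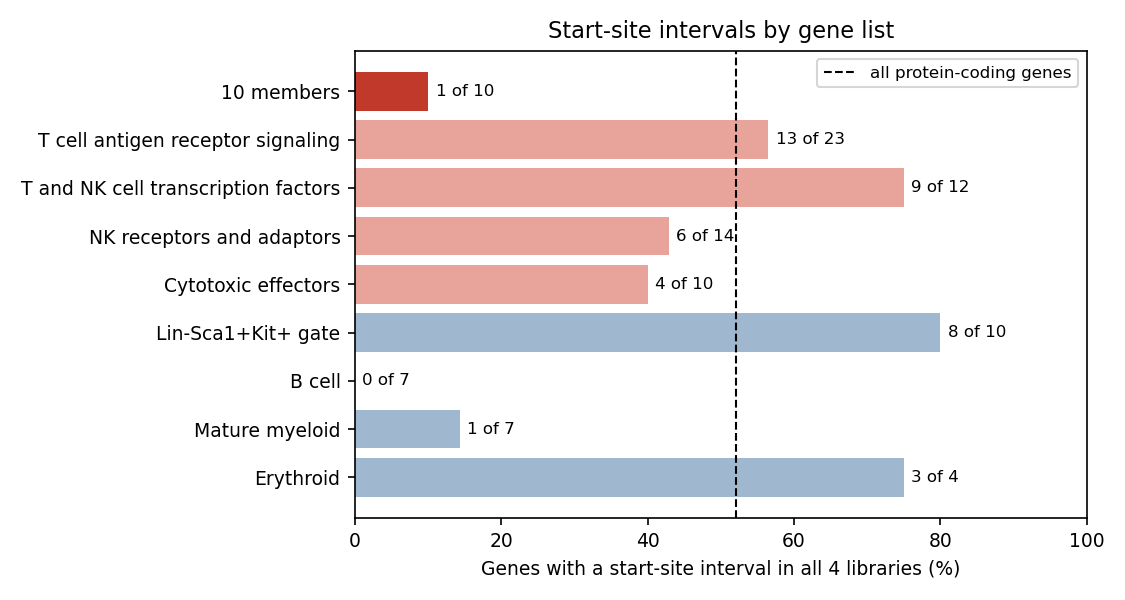
Percentage of genes with a start-site interval in all 4 libraries (x axis), for the 10 members (dark red), the other T and NK genes by role (light red) and markers of the LSK gate and of other blood cells (blue), with the number of genes beside each bar. The dashed line is the 52% of all protein-coding genes; the members stand at 1 of 10 and B cell genes at 0 of 7.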

How the data were processed

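The deposited table lists accessible intervals called separately in each of 4 ATAC-seq libraries. MACS 1.4.2 and the build mm10 are named in the submitters' processing notes. The sources used here give no aligner, read filter, depth or signal scaling. Per the file headers, each interval carries the authors' highest-bin and mean-bin signal, its assigned genes and the distance from its summit to their starts. A longer list holds more weak intervals, so a missing interval does not show closed chromatin. Coordinates are as in the file (starts may be counted from 0), and RefSeq sequences, starts and genes are of GRCm38.p6, the same build.

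Intervals whose list of genes, split at comma and space, held a member were taken. Intervals sharing at least 1 base were merged over libraries. For Cd4 and Klrd1 the table's own start was used. Start-site intervals had summits within 1 kb of a start. Signal was not tested between libraries. Counts were compared by exact permutation over libraries (python 3.11.15). Merging was tested on simulated data. Alternatives were the best 50% of each list, 46720 intervals per library, other windows, the authors' promoter annotation, a reciprocal overlap of 50% and each library left out. Named genes were all members and, per role, the 4 other T and NK genes with the highest mean percentile, those with genotype-specific regions and further examples such as Gata3 and Tcf7, the last chosen after their values were seen. Members and lists were chosen with earlier results of these data known.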

Additional observations from a re-analysis of the deposited data

How the results depend on the processing

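Klrd1 was the only member with a start-site interval in all 4 libraries except within 2 kb (2 genes, with Lck), with the outermost end of the RefSeq gene added (2, with Cd247) and by the authors' promoter annotation (5 genes, with Cd247, Cd3g, Lck and Zap70), which took in Cd3g with a summit 6161 bases upstream. The annotation names no gene and was given to listed genes with the summit upstream or up to 1 kb inside. The count of members with any assigned interval in all 4 libraries was 7 under every alternative run. The number of members with a WT-only region was 0 with the best 50% of each list and 0 with equal numbers of intervals, and ran from 1 to 4 with 1 library left out. That with an R248W-only region was 0 throughout. The difference in assigned intervals ran from -7 to -1 with 1 library left out and kept its sign under every alternative run. With the replicate number as a block it was -4 (exact sign-flip permutation test, p = 0.5, the smallest possible), and 2 pairs cannot show whether the numbers pair the samples. The other T and NK genes with start-site intervals fell from 32 to 17 with the best 50% of each list. They were 27 with equal numbers of intervals and 27 within 500 bases, 38 within 2 kb, 46 by the authors' promoter annotation and 32 to 34 with 1 library left out. The cause was not tested for any of these. Shares of all coding genes are given for the main setting and for RefSeq starts, not for the other alternatives. Unknown depth limits every statement on a missing interval.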
